A study of Mus musculus with 2 samples.

Results

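The genes of hyaluronan synthesis, breakdown and binding, with the versican gene, were described in the embryonic mouse limb. They comprised the hyaluronan synthase genes Has1, Has2 and Has3, the hyaluronidase genes Hyal1 and Hyal2, the receptor gene Cd44, the proteoglycan gene Vcan and the link protein gene Hapln3. These 8 genes were taken by name, with no threshold on their level, and each had a row among the 43346 Ensembl genes of the deposited tables. The study sequenced total RNA of whole limb tissue from healthy B6NCrl embryos of both sexes, aged 12.5 embryonic days. Its only group, with no mutant allele or treatment in the labels, held 2 biological replicates, pooled from 88 embryos (replicate 1) and 68 embryos (replicate 2), each starting with 10 ng of RNA longer than 200 nt. Forelimb and hindlimb were not told apart in the labels, and nothing was dissected into cell types. There was therefore no contrast between conditions, and levels are given as a description with their spread over the replicates.

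Hyaluronan is a long, unsulfated sugar polymer that synthases in the plasma membrane spin out directly into the extracellular space. Versican and the related lecticans bind it through a link-type domain at their amino terminus, link proteins lock that contact, and CD44 holds the polymer at the cell surface. Hyaluronidases cut it, at the cell surface or after uptake into lysosomes. In the limb bud a hyaluronan-rich matrix surrounds the loose mesenchyme, and versican is known from the mesenchyme that condenses into cartilage and from the forming joints.

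The libraries held 29810026 and 29938721 expected counts in replicates 1 and 2, and 14507 genes (33.5% of the Ensembl genes) reached 1 TPM in both, the level called detected here (TPM is the deposited transcript abundance, scaled by transcript length and library). Markers of limb mesenchyme were all detected (5 of 5, summed to 779 and 820.2 TPM), as were those of ectoderm (6 of 6, 353 and 329), apical ridge (4 of 4, 84.2 and 78.1), muscle (4 of 4, 500.3 and 483), endothelium (4 of 4, 124 and 119), macrophages and leukocytes (6 of 6, 92.1 and 82.2), nerve (4 of 4, 42.5 and 47.1) and erythroid cells (3 of 3, 8514 and 8489). Cartilage markers (6 of 6, 870.3 and 752) included 3 that were at least 1.5-fold lower in replicate 2, namely Matn1, Acan and Comp, and 2 of 3 liver markers were detected (7.53 and 5.04). Of the 44 detected markers, 5 were at least 1.5-fold apart, where 3.51% of 14386 detected genes with at least 10 counts were. Besides Matn1, Acan and Comp, these were Tubb3 and Afp. The nerve marker Tubb3 was higher in replicate 2 (count ratio 1.61, 1.37 to 1.89). The liver marker Afp was lower in it (0.589, 0.450 to 0.767). Alb, the liver marker not detected, had a ratio of 0.634 from 28 and 18 counts, with an interval of 0.330 to 1.19 that held 1. No marker of these lists was listed at 0 in both libraries. In bulk tissue of this mixture, fewer cells of a type and less RNA per cell cannot be told apart, and the cell types that carry the levels below were not resolved.

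The levels of the 8 genes spanned from over 100 TPM to below 1. Hyal2 and Vcan were the highest, Hyal1 was intermediate, Has2 and Cd44 were low but detected in both libraries, Hapln3 lay on either side of 1 TPM, and Has1 and Has3 were below 1 TPM in both. Of the 8 genes, 5 were detected in both libraries. Of the 7 neighbouring pairs in the order of mean TPM, 6 had ranges over the libraries that did not overlap. The exception was Hyal2 with Vcan, whose means differed 1.04-fold and whose order turned between the libraries. An exact sign-flip test over 2 libraries cannot go below p = 0.5, so no test of the order was made.

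**Figure D1:**
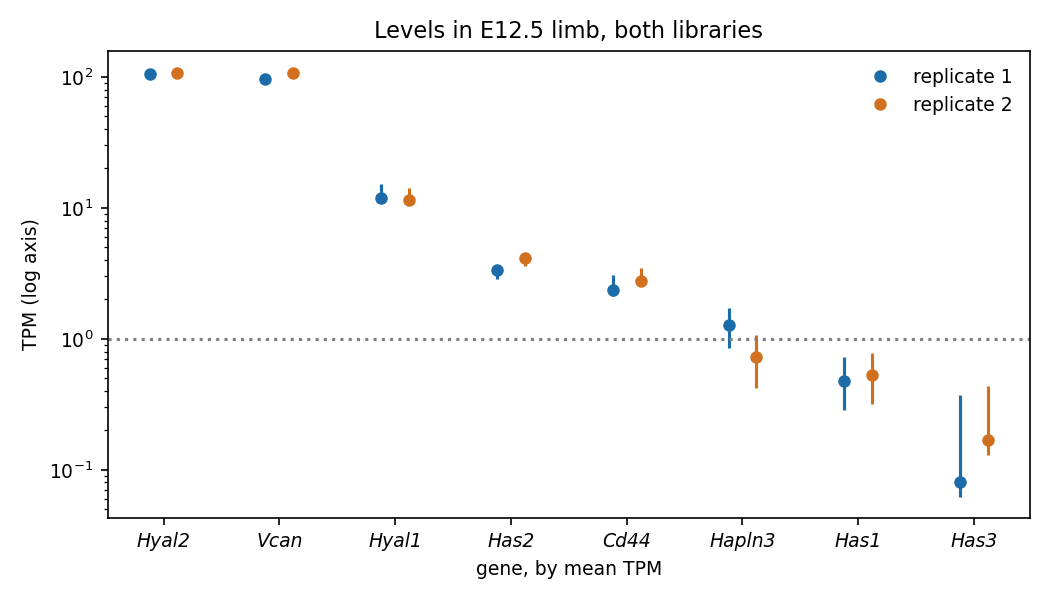
Level of each gene in TPM on a log axis, with a point for each library and a vertical line from the deposited lower to the deposited upper bound of that value; the dotted line marks 1 TPM. Hyal2 and Vcan lie together near 100 TPM, Hyal1 lies at 11.7 on average, and the other 5 genes lie below 5.

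Has2, the synthase needed for most hyaluronan of the mouse embryo, led the synthases. It was listed at 3.34 and 4.16 TPM in replicates 1 and 2 (mean 3.75 ± 0.580, SD, n = 2), with deposited bounds of 2.86 to 3.65 and 3.62 to 4.50, from 259 and 325 expected counts. The value was higher in replicate 2, and the bounds of the libraries just overlapped. Has2 (ENSMUSG00000022367.7, chr15:56665627-56694539, minus strand, build GRCm38) stood above 18.4% of the detected genes and ranked 10994 of 12702 detected protein-coding genes by mean TPM. It was thus a low but well-counted transcript.

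Has1, which encodes a synthase of low basal activity, was listed at 0.48 and 0.53 TPM (0.505 ± 0.0354) from 18 and 20 counts. Has3, whose enzyme makes shorter chains, was listed at 0.08 and 0.17 TPM (0.125 ± 0.0636) from 9 and 19 counts. The deposited bounds of Has3 were wide, at 0.0624 to 0.375 in replicate 1 and 0.129 to 0.435 in replicate 2, and both libraries' values lay near the lower bound. The deposited posterior mean TPM of Has3 was 0.19 and 0.27, since that estimate gave part of the gene to its shorter transcripts. Has1 (ENSMUSG00000003665.6, chr17:17843323-17855205, minus strand) was 4.04-fold above Has3 (ENSMUSG00000031910.10, chr8:106870242-106884566, plus strand) per length, but their counts overlapped. Has2 made up 85.6% of the summed TPM of the synthase genes in each library (85.6 ± 0.0313%), although that sum was 3.90 TPM in replicate 1 and 4.86 TPM in replicate 2.

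The hyaluronidase gene Hyal2, whose product is anchored to the cell surface and cuts long chains into intermediate ones, was listed at 105.59 and 106.61 TPM (106 ± 0.721). Its 3563 and 3660 expected counts placed it above 88.8% of the detected genes, at rank 1544 of the detected protein-coding genes. Hyal2 (ENSMUSG00000010047.8, chr9:107567945-107572779, plus strand) differed least between the libraries among the 8 genes, at a count ratio of 1.01, and its values overlapped within their deposited bounds of 99.9 to 108 and 101 to 109. Transcript Hyal2-201, of 1893 nt and 473 codons, carried 94.38% and 94.76% of its TPM.

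Hyal1, the lysosomal hyaluronidase gene, lies 4147 bases downstream of Hyal2 on the same strand (ENSMUSG00000010051.11, chr9:107576927-107581710). It was listed at 11.93 and 11.56 TPM (11.7 ± 0.262), with bounds of 10.9 to 15.2 and 10.9 to 14.3, which overlapped almost fully. Hyal2 held 89.8% and 90.2% of the summed TPM of both hyaluronidase genes (90.0 ± 0.261%), a share not planned in advance. Hyal1 was the only one of the 8 genes whose expected counts were not whole (514.83 and 537.56); the other 7 had whole counts in both libraries to the 2 decimals deposited. Its exons share 1920 nt with those of the acetyltransferase gene Naa80 on the same strand (13.52 and 12.19 TPM) and 159 nt with those of the paralog Hyal3 (1.08 and 1.16 TPM), so its level depends on how shared reads were divided. Part of it was also given to Hyal1-205, an unspliced model annotated as a retained intron (32.67% and 22.48%), while the protein-coding Hyal1-202 carried 54.61% and 77.52%.

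Set against each other per length, the breakdown genes exceeded the synthesis genes. The summed TPM of Hyal1 and Hyal2 (118 in each library) was 30.1 times that of the synthases in replicate 1 and 24.3 times in replicate 2. These are ratios of transcript levels and say nothing of enzyme amounts or activity.

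Cd44, the main cell surface receptor of hyaluronan (ENSMUSG00000005087.13, chr2:102811141-102901665, minus strand), was listed at 2.37 and 2.78 TPM (2.58 ± 0.290) from 172 and 232 counts. It was above 12.6% of the detected genes and 1.46-fold below Has2, with ranges that did not overlap. Vcan exceeded it 40.9-fold in replicate 1 and 38.8-fold in replicate 2.

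Vcan, which encodes the large chondroitin sulfate proteoglycan versican (ENSMUSG00000021614.12, chr13:89655312-89742509, minus strand), was listed at 97.05 and 107.74 TPM (102 ± 7.56), with bounds of 91.4 to 98.3 and 101 to 109 that did not overlap. It had the most counts of the 8 genes, 13153 and 14128, and its mean count, which is not divided by length, was 3.78 times that of Hyal2. Vcan was 29.1 and 25.9 times the level of Has2 per length. Among the lecticans it made up 92.7% and 96.7% of the summed TPM (94.7 ± 2.84%), a share chosen after the values were seen. The cartilage lectican gene Acan followed at 6.26 and 3.13 TPM, and the neural lectican genes Ncan and Bcan were below 1 TPM in both.

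Hapln3, the most widely expressed of the link protein genes in adult tissues, was listed at 1.28 TPM in replicate 1 and 0.72 TPM in replicate 2 (1.00 ± 0.396) from 32 and 18 counts. Its deposited bounds, 0.852 to 1.73 and 0.418 to 1.07, overlapped. Hapln3 (ENSMUSG00000030606.7, chr7:79115102-79131018, minus strand) was counted on a single transcript model of 1433 nt, which is 1191 nt long and typed as subject to nonsense-mediated decay in GENCODE M21. The link protein gene Hapln1 was higher, at 19.47 and 12.33 TPM, while Hapln2 was at 0.1 and 0.08 TPM and Hapln4 was listed at 0 in both libraries.

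Between the libraries, none of the 5 detected genes was 1.5-fold apart (0 of 5, where 3.51% of 14386 detected genes with at least 10 counts were). The ratio of replicate 2 over replicate 1, on expected counts scaled by library totals, was 1.24 for Has2 (exact 95% binomial interval 1.05 to 1.46), 1.33 for Cd44 (1.09 to 1.63) and 1.06 for Vcan (1.03 to 1.08). All 3 intervals lay above 1, as they did for 13.0% of the tested genes, and 0 of the 5 lay below 1, as they did for 17.1%. In either direction, 30.1% of the tested genes had an interval that left out 1. The intervals of Hyal2 (0.967 to 1.06) and Hyal1 (0.911 to 1.16) held 1. The remaining genes were counted too thinly for a narrow ratio, which was 0.554 for Hapln3 (0.293 to 1.02), 1.10 for Has1 (0.550 to 2.20) and 2.08 for Has3 (0.897 to 5.22). These intervals cover counting error only, and no p-value was computed because 2 libraries of 1 group give no spread to test against. The count ratio of Cd44 exceeded its TPM ratio (1.17), because the deposited gene length, weighted by its transcripts, was 3967.15 nt in replicate 1 and 4530.89 nt in replicate 2.

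**Figure D2:**
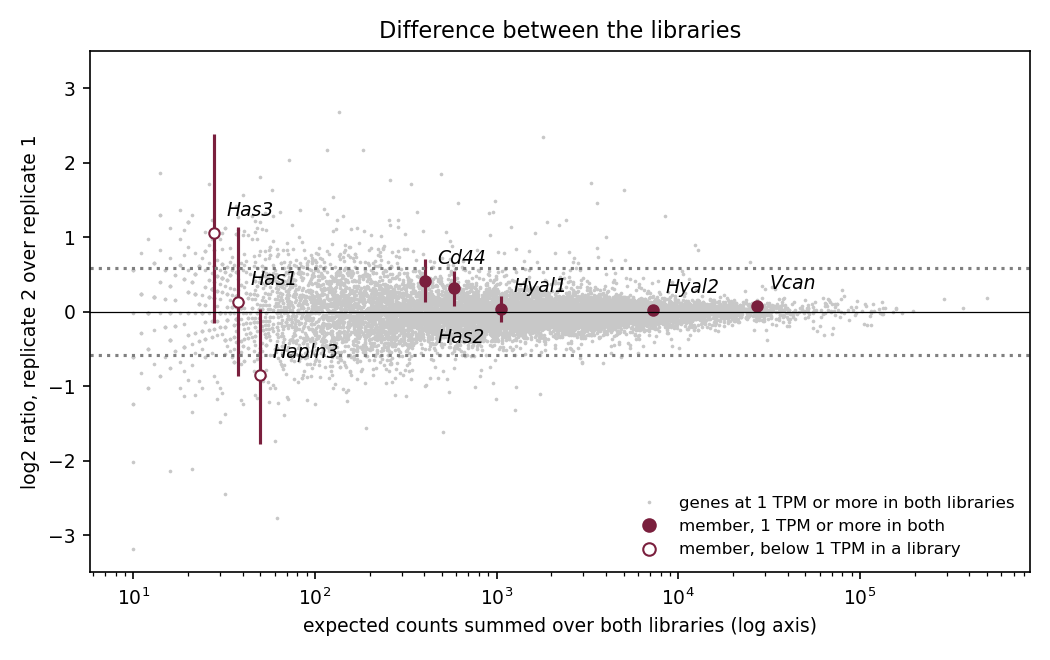
Log2 ratio of replicate 2 over replicate 1 against the expected counts summed over both libraries (log axis), with grey points for 14386 detected genes and vertical lines for the exact 95% interval of the 8 genes; dotted lines mark a 1.5-fold difference and open circles mark genes below 1 TPM in a library. Vcan and Hyal2 lie close to 0, Has2 and Cd44 lie above it within the dotted lines, and Has3, Has1 and Hapln3 have intervals that cross 0.

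Versican comes in forms that differ by a pair of very large exons, which carry the attachment sites of its chondroitin sulfate chains. The alpha exon (exon 7, chr13:89702918-89705797, 2880 nt, 960 codons) and the beta exon (exon 8, chr13:89688285-89693501, 5217 nt, 1739 codons) both leave the reading frame intact when skipped. V0 holds both, V1 only the beta exon, V2 only the alpha exon and V3 neither, so V3 keeps the domains at both ends of the protein without that attachment region. The exon joins that tell the forms apart are shown because the shares below turn on them. Each runs 5′ to 3′ on the minus strand of chr13 in GRCm38 (GENCODE M21 exons), with the last 20 bases of the upstream exon in lower case and the first 20 of the downstream exon in capitals.
Exon 6 to alpha exon, V0 and V2: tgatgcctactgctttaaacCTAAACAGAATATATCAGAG
Alpha exon to beta exon, V0: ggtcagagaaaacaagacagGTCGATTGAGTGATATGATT
Exon 6 to beta exon, V1: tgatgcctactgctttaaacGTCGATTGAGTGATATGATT
Alpha exon to exon 9, V2: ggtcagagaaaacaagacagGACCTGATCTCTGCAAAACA
Exon 6 to exon 9, V3: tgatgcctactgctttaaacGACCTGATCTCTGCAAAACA

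The same 20 bases at the end of exon 6 thus run into 3 different continuations, those of V0 and V2, V1, and V3. In the annotation, the alpha-to-beta join belongs to Vcan-203 alone, the exon 6 to beta join to Vcan-206, the alpha to exon 9 join to Vcan-202 and the exon 6 to exon 9 join to Vcan-201. Reads over single joins are not part of the deposited tables, so the levels of these forms are those that the quantifier gave to whole transcripts.

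V0 was the leading form. Vcan-203, its transcript of 12427 nt, 15 exons and 3354 codons, held 44.3% and 43.74% of the Vcan TPM in replicates 1 and 2 (44.0 ± 0.396%). Its TPM was 43.0 and 47.13. The deposited bounds of those values (40.3 to 42.8 and 44.3 to 46.9) lay just below both values and held the deposited posterior means, 41.56 and 45.62. V3 came next. Vcan-201, of 2321 nt and 655 codons, held 24.4% and 26.7% (25.6 ± 1.62%), at 23.67 and 28.77 TPM. V1 followed. Vcan-206, of 8332 nt and 2394 codons, held 11.29% and 8.52% (9.91 ± 1.96%), at 10.96 and 9.18 TPM. The order V0, V3, V1 was the same in both libraries and their ranges did not overlap.

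V2, the form known as the main versican of adult brain, was barely listed. Vcan-202, of 5702 nt and 1615 codons, was given 0 counts in replicate 1 and 20.52 in replicate 2, which is 0.18% of the Vcan TPM there. This transcript has no exonic base of its own, so its 0 is an assignment by the quantifier and not an observed absence. The deposited upper bounds for Vcan-202 were 0.728 and 0.848 TPM and its posterior means were 0.29 and 0.36 TPM in replicates 1 and 2, which left it below V0, V1 and V3 in both libraries. Because V0 also carries the alpha exon, the alpha exon itself was common. Among the 4 complete forms, 55.4% and 55.5% of the TPM included it (55.4 ± 0.0731%) and 69.5% and 66.0% included the beta exon (67.8 ± 2.46%). Neither exon was included in 30.5% and 33.7% (32.1 ± 2.30%).

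The other 5 Vcan transcripts together held 20.0% and 20.9% (20.4 ± 0.607%). Of these, Vcan-205, a model of 2273 nt that stops after the 5′ exons, held 8.37% and 4.89%, and the short Vcan-209 held 4.35% and 7.36%. The 3′ model Vcan-208 held 4.05% and 5.13%, and Vcan-207, typed as a retained intron, 3.23% and 3.48%. Vcan-204 was listed at 0. Vcan-205 and Vcan-209 went in opposite directions between the libraries, while the sum stayed within 1 percentage point.

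The share of V3 rests strongly on the scale. In expected counts, which are not divided by length, V0 held 75.5% and 77.6%, V1 12.9% and 10.1%, and V3 only 7.49% and 8.53%. By counts V3 was therefore below V1 in both libraries, the reverse of the order by TPM. Of the complete forms only Vcan-203 has exonic bases of its own in the annotation (1203 nt). V1, V2 and V3 have none and differ from the others by which large exons they hold, by their joins and by where their models end. The 3′ end of Vcan-203 reaches 1028 nt beyond that of Vcan-206, which reaches 716 nt beyond that of Vcan-201, so reads from the last exon also bear on the split. How much of the split comes from the model ends was not tested.

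**Figure D3:**
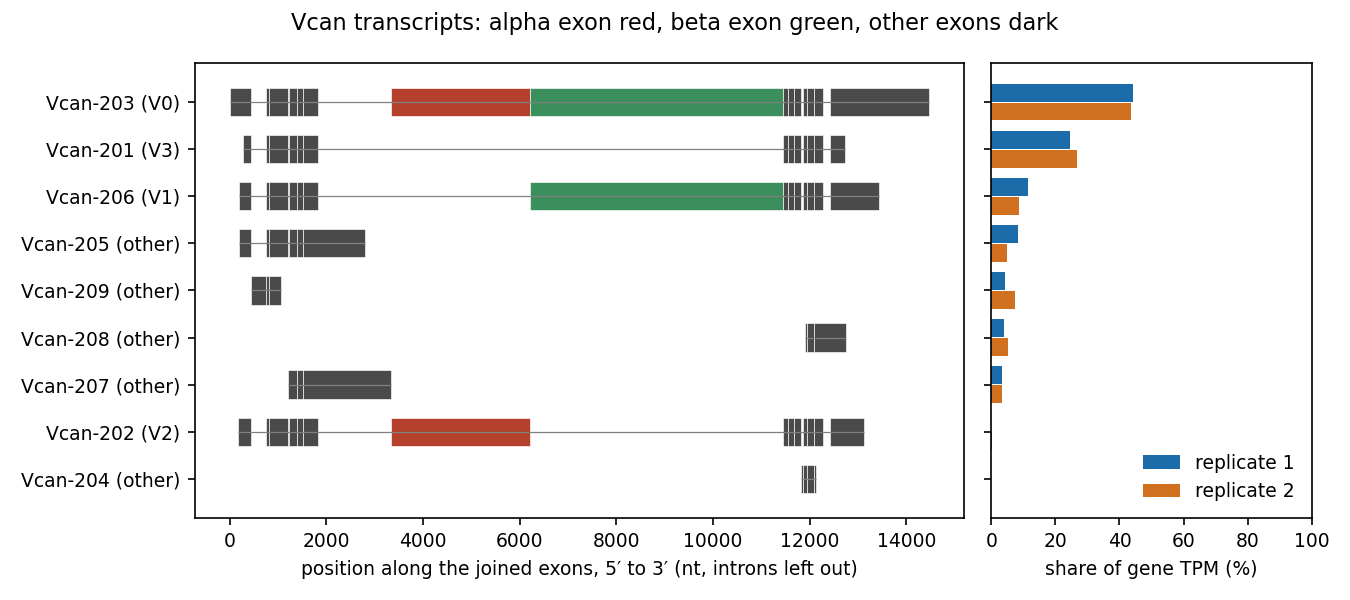
Left, exons of the 9 Vcan transcripts along the joined exons in nt, 5′ to 3′, with introns left out, the alpha exon in red and the beta exon in green; right, share of the Vcan TPM in percent, with a bar for each library. Vcan-203, the only model with both large exons, holds the largest share in both libraries, followed by Vcan-201, which has neither.

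Cd44 has a block of 10 variable exons (exons 6 to 15 of Cd44-201, 1245 nt in all) between 5 constant exons at its 5′ end and the constant exons of the stem, membrane and tail. Each variable exon has a length that is a multiple of 3. The standard form skips the whole block, and variant forms include parts of it, as known from epithelia. The joins of the leading models, on the minus strand of chr2 in GRCm38, are shown in the same way. They differ between the standard model and the leading variant model.
Exon 5 to the exon after the variable block, Cd44-203: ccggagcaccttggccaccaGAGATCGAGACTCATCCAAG
Exon 5 to variable exon 5, Cd44-207: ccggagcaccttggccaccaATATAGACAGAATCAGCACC
Variable exon 6 to variable exon 8, Cd44-207: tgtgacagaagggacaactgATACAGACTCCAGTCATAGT

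Models with variable exons took most of the Cd44 level. Cd44-207, of 5045 nt and 577 codons, with variable exons 5, 6, 8, 9 and 10, held 51.25% and 77.89% of the Cd44 TPM in replicates 1 and 2, at 1.22 and 2.16 TPM from 112.7 and 201.67 counts. The standard model Cd44-203, of 2848 nt and 365 codons, held 36.26% and 18.83% (27.5 ± 12.3%), at 0.86 and 0.52 TPM from 44.33 and 27.1 counts. The variant model was above the standard one in both libraries, but the size of the gap differed much between them. The deposited bounds for TPM were 0.674 to 1.44 for Cd44-207 against 0.307 to 1.31 for Cd44-203 in replicate 1, which overlapped. In replicate 2 they were 1.56 to 2.36 against 0.0411 to 0.923, which did not.

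Summed over the 7 transcripts with at least 1 variable exon, the share was 58.2% and 81.2% (69.7 ± 16.2%). Besides Cd44-207, this sum held Cd44-202 (variable exons 6 to 10) at 6.98% in replicate 1 and 0% in replicate 2, and Cd44-208 (variable exons 4 to 10) at 0% and 3.28%. The other 4 such transcripts were listed at 0 in both libraries. Cd44-209, typed as a retained intron, held 5.51% in replicate 1 and was at 0 in replicate 2. Among spliced models, variable exons 8, 9 and 10 were each included in 61.8% and 81.2% of the TPM, variable exon 5 in 54.2% and 81.2%, and variable exon 7 in 7.56% and 3.25%. Variable exons 1 to 3 were in no transcript with a level above 0.

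The higher variant share in replicate 2 and the gene's count ratio of 1.33 rest on 172 and 232 counts in all. Cd44-207 and Cd44-201, which was listed at 0, are also the only spliced models with a longer 3′ end, which reaches 1406 nt beyond that of Cd44-203. Reads from that stretch can be assigned to no other spliced model, and their part in the split was not tested. The epithelial splicing regulator genes Esrp1 and Esrp2, whose proteins favour inclusion of the variable exons, were at 7.41 and 6.33 TPM and at 6.62 and 6.2 TPM, and Khdrbs1, which encodes another regulator of this block, at 167.58 and 171.68 TPM.

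**Figure D4:**
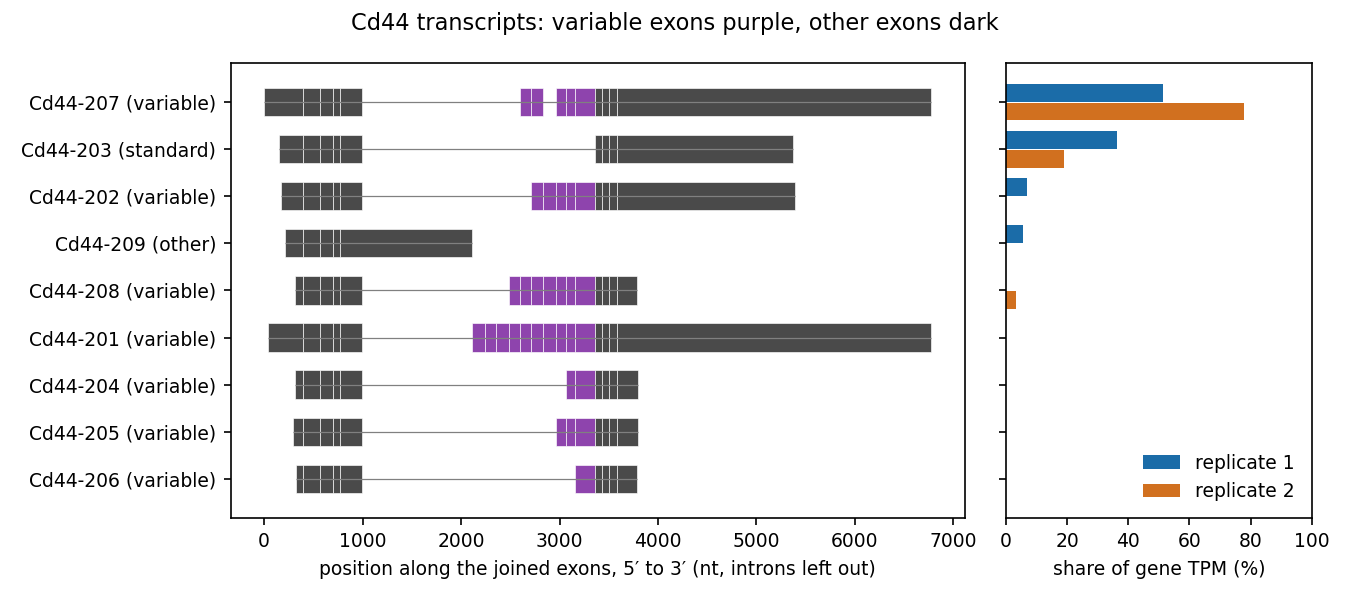
Left, exons of the 9 Cd44 transcripts along the joined exons in nt, 5′ to 3′, with introns left out and variable exons in purple; right, share of the Cd44 TPM in percent, with a bar for each library. Cd44-207, with 5 variable exons and a long 3′ exon, leads in both libraries, and the standard Cd44-203 is second.

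Neighbouring genes were read beside each of the 8 genes, since strandedness of the counts was not given in the sources used here. Has2os, an antisense transcript that shares 182 exonic nt with Has2, was at 2.28 and 3.25 TPM from 38 and 45 counts. Both Has2 and Has2os were listed higher in replicate 2, but the count ratio of Has2os (1.17) had an interval of 0.741 to 1.85, which held 1. The exons of Has3 share 352 nt with those of Chtf8 on the other strand, a gene of a replication clamp loader subunit with 90.74 and 129.75 TPM from 4319 and 6243 counts, against the 9 and 19 counts of Has3. Reads of the shared stretch cannot be told apart without strand. Gm4117, antisense to Vcan, was at 0.33 and 1.19 TPM, and Gm16318, a pseudogene inside Vcan, at 1.28 and 1.37 TPM, and neither shares exonic bases with it. Gm9917 overlaps Hyal2 without shared exonic bases (4.44 and 4.7 TPM), and Gm16343 at Hyal1 and the small RNA gene Gm23731 inside Cd44 were listed at 0.

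Vcan and Hapln3 each lie next to a gene of the other kind, Vcan beside a link protein gene and Hapln3 beside a lectican gene. Hapln3 and Acan lie on opposite strands with 2 bases between them, and 43659 bases separate Vcan from Hapln1, also on opposite strands. At the Hapln3 locus both genes had lower values in replicate 2, Hapln3 at 1.28 and 0.72 TPM and Acan at 6.26 and 3.13 TPM. The interval of the count ratio held 1 for Hapln3 (0.293 to 1.02, from 32 and 18 counts) but not for Acan (0.440 to 0.557). At the Vcan locus, Vcan was higher in replicate 2 and Hapln1 lower (19.47 and 12.33 TPM, count ratio 0.629, 0.583 to 0.677). The other flanking genes were Mfge8 beside Hapln3 (119.0 and 122.78 TPM), Xrcc4 beside Vcan (9.53 and 10.93), Spaca6 and Fpr1 beside Has1 (51.19 and 52.94, and 0.04 in each), Utp4 and Tango6 beside Has3 (58.2 and 55.68, and 10.24 and 10.58), Tusc2 beside Hyal2 (41.65 and 44.31), Ifrd2 beside Hyal1 (31.66 and 34.63), and Pdhx and Slc1a2 beside Cd44 (34.23 and 33.86, and 0.31 and 0.14). The low Has1 and Hapln3 thus lay beside genes of much higher level, Spaca6 and Mfge8.

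Of 75 other genes of the hyaluronan and versican system matched in the tables, 55 were detected, and the median over all 75 was 15.7 TPM. Of all Ensembl genes 33.5% were detected. That share covers every biotype, and 12702 of the 14507 detected genes were protein-coding, so it is no like base for this list. Of the 55, 2 were at least 1.5-fold apart between the libraries, where 3.51% of the tested genes were. Both, Acan and Hapln1, encode cartilage matrix proteins and were lower in replicate 2, as were Matn1 and Comp of the cartilage markers above (Acan stands in both lists). The other cartilage markers, Sox9, Col9a1 and Col2a1, were less than 1.5-fold apart, at count ratios of 0.986, 0.915 and 0.811. The interval of Sox9 (0.964 to 1.01) held 1. The part of the cartilage markers in these values was not tested. The median ratio of the 55 was 0.952, next to 0.994 over the detected genes.

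Genes that supply the sugar nucleotides were all detected (11 of 11, median 37.7 TPM). They were led by Gpi1, which encodes a glycolytic isomerase (192 ± 9.43), Ugdh, which encodes the dehydrogenase that makes UDP-glucuronate (140.1 ± 5.86), and Ugp2, which encodes the enzyme that makes UDP-glucose (76.7 ± 1.62). The nucleotide sugar transporter gene Slc35d1 was the lowest (9.50 ± 1.07). Every one of these genes stood above Has2.

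Among other genes of hyaluronan breakdown, 5 of 10 were detected. The lysosomal glycosidase genes Hexa (45.9 ± 1.33) and Gusb (36.5 ± 0.552) and the cell surface hyaluronidase gene Cemip2 (39.4 ± 0.148) led, and the sperm hyaluronidase gene Spam1 was listed at 0. Of the other genes listed as receptors, 5 of 8 were detected, with Stab2 lowest (0.145 ± 0.00707). The highest was the integrin gene Itgb1 (174 ± 4.58), whose product is a matrix receptor and not a dedicated hyaluronan receptor. The gene of the motility receptor and mitotic protein Hmmr (46.1 ± 2.57) and the scavenger receptor gene Stab1 (15.7 ± 3.39) followed. Hmmr and Stab1 were both higher than Cd44.

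Of the genes listed for cross-linking or binding hyaluronan, 5 of 11 were detected. The highest listed, and counted among the 5, was Bmpr1a (58.8 ± 2.98), which encodes a BMP receptor and no hyaluronan cross-linker. Tnfaip6, whose product moves heavy chains onto hyaluronan (44.0 ± 2.94), and Habp4 (20.7 ± 0.438) followed, and Habp2 was the lowest (0.0100). The genes Itih1, Itih2, Itih3 and Itih4, which encode such heavy chains, had means between 0.0250 and 0.210 TPM. Itih5, of the same family, was detected at 2.3 and 2.34 TPM (2.32 ± 0.0283).

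All 6 genes of versican-cleaving ADAMTS proteases were detected, led by Adamts1 (45.0 ± 1.20), Adamts15 (15.4 ± 2.29) and Adamts4 (8.94 ± 0.184), with Adamts20 lowest (3.75 ± 0.247). Of the genes of versican's binding partners, 7 of 9 were detected, led by Fbln1 (211 ± 4.55), Fn1 (160.1 ± 3.40) and Fbln2 (105 ± 0.396), and the neural tenascin gene Tnr was listed at 0. The genes listed for links between the tail of CD44 and the cytoskeleton were all detected (7 of 7). Rdx (116 ± 4.79), Msn (60.3 ± 6.48) and Nf2 (53.1 ± 3.96) were the highest, and Ank1 was the lowest (5.50 ± 0.757). Genes of CD44 splicing and cleavage were also all detected (6 of 6), led by Khdrbs1 (169.6 ± 2.90), Mmp14 (127 ± 12.6) and Adam10 (55.4 ± 3.38), with Esrp2 lowest (6.41 ± 0.297). Each of the lowest genes of these last lists, Ank1 and Esrp2, was still above Cd44 itself.

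**Figure D5:**
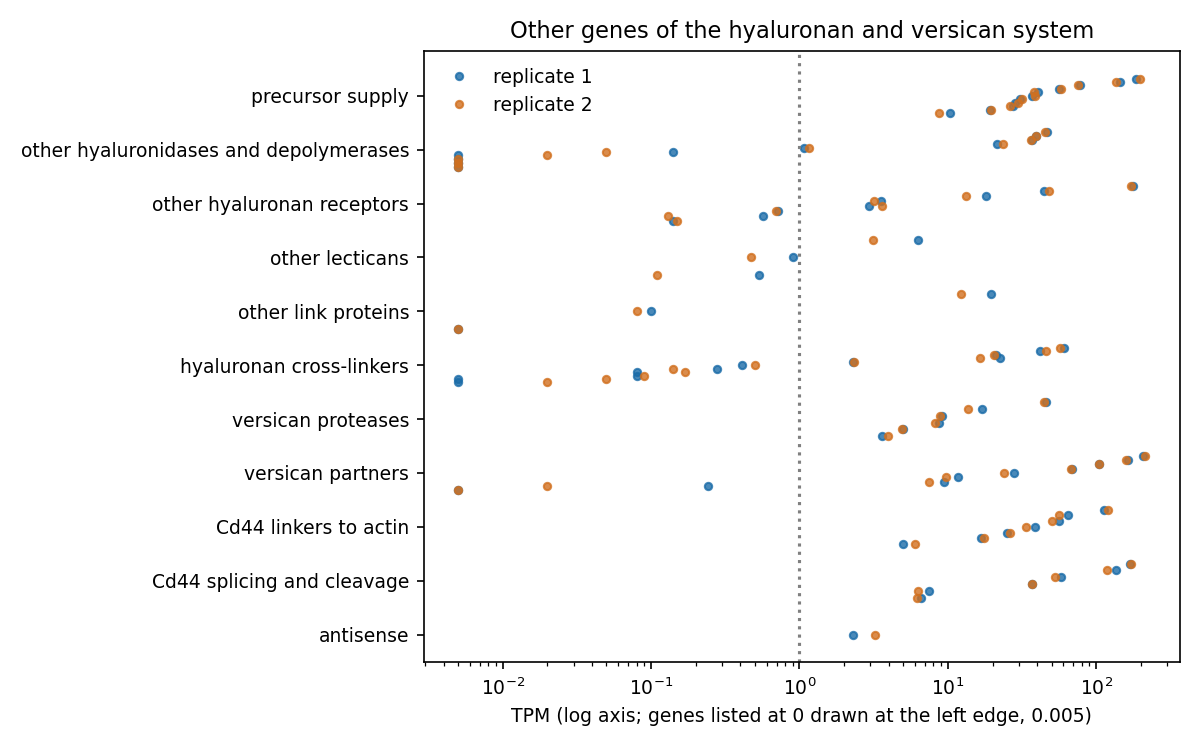
Level in TPM (log axis) of 75 other genes of the hyaluronan and versican system, in a row for each role, with a point for each library; genes listed at 0 are drawn at the left edge and the dotted line marks 1 TPM. The rows labelled precursor supply, versican proteases, CD44 linkers to actin, and CD44 splicing and cleavage lie wholly above 1 TPM. The rows of other hyaluronidases, lecticans, link proteins and cross-linkers hold genes on both sides of it.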

How the data were processed

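Total RNA was extracted with mirVana, per the labels, and the build was mm10 with GENCODE M4, per the submitters' processing notes and deposited text files. Strandedness, aligner and quantifier were not given in the sources used here. Deposited expected counts are estimated counts that need not be whole, and the deposited TPM values are abundances per length, per the file headers. The bounds of TPM are the authors' own deposited values, of a level not stated. The deposited percent values (IsoPct) give each transcript's share of its gene's TPM.

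Names, coordinates, exons and joins came from GENCODE M21 on the same assembly, and 42462 identifiers matched. Ratios used rounded expected counts scaled by library totals over genes with at least 10 counts summed, with Clopper-Pearson 95% intervals, tested on simulated data. The simulated counts held counting error alone, so that test could not check the intervals against other spread between libraries. With no molecular identifiers, intervals cover counting error only. No count model was fitted; edgeR 4.0.16 and DESeq2 1.42.0 (R 4.3.3) gave other scalings, with Python 3.11.15, scipy 1.17.1, pandas 2.3.3, numpy 2.4.6 and matplotlib 3.10.9. The genes and lists were chosen with earlier results of these data known. Named were all 8 genes, of each list the 3 highest, the lowest and those of at least 5 TPM at least 1.5-fold apart, transcripts of Vcan and Cd44 of at least 1% mean share, and neighbouring genes. Genes outside this rule (Esrp1 and Itih1 to Itih5) were chosen after their values were seen. The ratios of hyaluronidase to synthase levels, and of Vcan to Has2 and to Cd44, were not planned in advance. Cemip2 was listed under its older symbol too and counted once.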

Additional observations from a re-analysis of the deposited data

How the results depend on the processing

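Of 120 alternatives over 29 results, 102 gave a value within the limits set, 18 moved and 0 reversed, each judged on its own value. For levels and shares the limit matched the SD over the 2 libraries. Leaving out a replicate could not pass that limit, so those alternatives were no check. A wide SD also let large shifts stay within it, as for standard Cd44 (27.5% by TPM, 18.7% by counts). Orders between values did turn. By counts V3 fell below V1 in both libraries and Vcan stood above Hyal2. The replicate ratio of Hyal1 was 1.03 by counts and 0.969 by TPM. With the deposited posterior means, Has3 had a mean of 0.230 TPM, Hyal1 12.7, Hyal2 104, Has2 83.0% of the synthases, Hyal2 89.1% of Hyal1 and Hyal2, V0 43.5% and V2 0.324% of Vcan. With TPM rescaled to Ensembl genes, Hyal1 had 12.6 and Hyal2 114 TPM. By expected counts without length, Has2 held 89.9%, Hyal2 87.3%, V0 76.5% and V3 8.01%, and V0 held 45.6% of protein-coding Vcan transcripts. The TPM ratio of Vcan was 1.11. Genes at least 1.5-fold apart numbered 505, but 2422 with no filter on TPM, 115 at 5 TPM or more, and 134 were at least 2-fold apart. By counts, 5 of the 7 neighbouring pairs in the order were apart, with Hapln3, Has1 and Has3 not separated. Without replicate 1 the order of means turned for 1 pair, with Vcan above Hyal2, and without replicate 2 all 8 genes kept their rank; whether ranges overlap could not be asked with a replicate left out. No paired analysis was possible because there is 1 group. Depth limits Has1, Has3, Hapln3 and the Cd44 transcripts most.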

Other observations

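Some values lay outside the comparisons above and were picked after they were seen. Lyve1, a receptor gene of lymphatic vessels and some macrophages, was at 0.57 TPM in replicate 1 and 0.13 TPM in replicate 2, from 27 and 6 expected counts (count ratio 0.219, exact 95% interval 0.0740 to 0.542). The pentraxin gene Ptx3, whose product helps to cross-link hyaluronan, was at 22.6 and 16.38 TPM (ratio 0.705, 0.628 to 0.791), and Adamts15 at 17.01 and 13.77 TPM (0.804, 0.750 to 0.861). Both were lower in replicate 2 but less than 1.5-fold apart. Cemip, a hyaluronan depolymerase gene, was at 0.14 and 0.05 TPM, whereas its relative Cemip2 was at 39.3 and 39.51 TPM.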
